A study of Arabidopsis thaliana with 24 samples.

Results

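The 10 genes described here are the core of salicylic acid synthesis and of its classical transcriptional output in Arabidopsis thaliana. They were listed by locus identifier, with earlier results of these data known, and are 10 of the 33602 genes in each deposited count table. Isochorismate synthase ICS1 (AT1G74710), the exporter EDS5 (AT4G39030) and the amido synthetase PBS3 (AT5G13320) make the hormone. EDS1 (AT3G48090), PAD4 (AT3G52430) and SAG101 (AT5G14930) are the lipase-like regulators upstream of it. PR1 (AT2G14610), PR2 (AT3G57260), PR5 (AT1G75040) and PNP-A (AT2G18660) are genes it induces. PRMT5, the gene mutated in the study, encodes a protein arginine methyltransferase that acts on histones and on proteins of the splicing machinery.

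RNA of entire seedlings was sequenced from 24 libraries, 3 in each of 8 groups. The groups were WT and prmt5-5 seedlings of the accession Columbia (Col-0, here Col), WT and prmt5-5 seedlings of the accession Landsberg erecta (Ler), and WT and prmt5-5 seedlings of the F1 hybrids Col x Ler and Ler x Col. The prmt5-5 allele arose in Col and was carried into Ler through 7 generations of backcrossing, so the Ler mutant can hold Col sequence, and the F1 mutants have prmt5-5 from both parents. Per the labels' extraction notes, all 8 groups were sown on MS agar, kept at 4 °C in the dark for 4 days and then grown in continuous white light at 22 °C, and were 9 days old when collected. The labels' growth notes instead name soil and long days, and which of these conditions held for every group is not settled by the labels. No pathogen or hormone treatment is given in the labels. The order of the names was not taken to say which accession bore the seed.

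In plants, most salicylic acid made under stress comes from chorismate. ICS1 forms isochorismate in the chloroplast, EDS5 moves it to the cytosol, and PBS3 joins it to glutamate, after which the conjugate breaks down to salicylic acid. EDS1 pairs with either PAD4 or SAG101, and the pairs work with helper immune receptors to relay signals and to raise ICS1 expression. Salicylic acid is sensed by NPR proteins, which with TGA transcription factors activate PR1, a secreted antimicrobial protein, PR2, a beta-glucanase, and PR5, a thaumatin-like protein. PNP-A encodes a small secreted natriuretic peptide that affects water and ion balance.

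The 250 bases upstream of the annotated start are shown for PR2, PR5 and PNP-A because the largest changes lay in these output genes. They come from the RefSeq annotation and genome of TAIR10.1, which is the Col sequence, and Ler sequence was not used here. Capitals mark TGACG, the core bound by TGA factors, and TTGAC, the core of the W box bound by WRKY factors, on either strand. A TTGACG holds both. Each is written 5′ to 3′ in the direction of transcription.
PR2, chr3:21189968-21190217, minus strand: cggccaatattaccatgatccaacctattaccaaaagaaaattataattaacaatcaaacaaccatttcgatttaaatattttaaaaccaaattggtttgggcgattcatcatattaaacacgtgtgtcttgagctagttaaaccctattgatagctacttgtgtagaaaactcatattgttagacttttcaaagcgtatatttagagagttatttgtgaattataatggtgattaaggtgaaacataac
PR5, chr1:28177420-28177669, plus strand: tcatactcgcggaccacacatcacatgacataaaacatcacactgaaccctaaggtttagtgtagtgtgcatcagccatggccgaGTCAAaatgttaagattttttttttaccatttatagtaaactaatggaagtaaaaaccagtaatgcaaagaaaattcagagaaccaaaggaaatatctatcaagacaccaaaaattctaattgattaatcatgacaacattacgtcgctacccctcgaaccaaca
PNP-A, chr2:8091737-8091986, minus strand: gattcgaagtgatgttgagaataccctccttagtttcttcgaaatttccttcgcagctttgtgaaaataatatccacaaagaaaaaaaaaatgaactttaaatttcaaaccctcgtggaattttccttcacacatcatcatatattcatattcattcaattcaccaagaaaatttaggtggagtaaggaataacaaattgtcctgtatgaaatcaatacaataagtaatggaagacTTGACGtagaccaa

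Among the 3, PNP-A held the overlapping pair of cores, 14 bases before its start, PR5 held a W-box core, and PR2 held neither in this window. In 250 bases, 1 of the 9 genes searched held TGACG (PNP-A) and 5 held TTGAC, while 18.6% and 44.9% of 27443 promoters of the same length held them. In 1000 bases, 5 of the 9 genes held TGACG and 9 held TTGAC, against 54.1% and 88.1% of all promoters. PR2 had a pair of TGACG cores in the longer window. These matches describe letters only, and with 9 genes the counts are too few to set against the shares of all promoters.

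The parental libraries held 36993250 to 72713735 counts and the F1 libraries 6047673 to 29376326 counts that had been assigned to an allele. Levels are given as CPM, the usual depth-scaled count, computed on library totals after TMM normalisation, and F1 levels are the sum of both alleles and cannot be set beside parental levels. As deposited, 65.7% of the parental counts from 1 to 20 and 70% of the F1 counts of that size, summed over alleles, were even, so intervals that rest on counts cover counting error only and may be too narrow. PRMT5 RNA had a log2 fold change of 0.10 (SE 0.09) in Col and of −0.0036 (SE 0.088) in Ler, so its level did not separate the genotypes. Its Ler share of allele counts was 53.1% of 1046 counts in the WT F1 and 0.189% of 1057 counts in the prmt5-5 F1 (exact 95% binomial interval 0.0229% to 0.682%). The 20 nearest counted genes around PRMT5 had a median Ler share of 50.6% in WT F1 and of 0.751% in prmt5-5 F1, where the highest was 26.7%. The low share was thus one of the region, not of PRMT5 alone. In Ler and in both F1 hybrids, an effect of prmt5-5 and one of this region cannot be told apart. The labels do not say that replicates were separate plantings, so the tests measure the spread between these samples, which may be technical. In RNA of whole seedlings, fewer cells of a type and less RNA per cell cannot be told apart.

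The first question was how prmt5-5 changed these genes within each accession. In Ler, 9 of the 10 genes rose in prmt5-5 and none fell, where 19.1% of the 22924 genes tested were called higher and 17% lower (edgeR quasi-likelihood test, adjusted p under 0.05). In Col, SAG101 rose and the other 9 genes did not pass the test, where 14.8% of genes were called higher and 12.4% lower. The median log2 fold change of the 10 genes was 1.21 in Ler and 0.16 in Col, against 0.01 over all genes in each. All 3 mutant libraries lay above all 3 WT libraries for 8 of the 10 genes in Ler, where 24.2% of genes did so, and for 1 gene in Col, where 25.7% did.

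**Figure D1:**
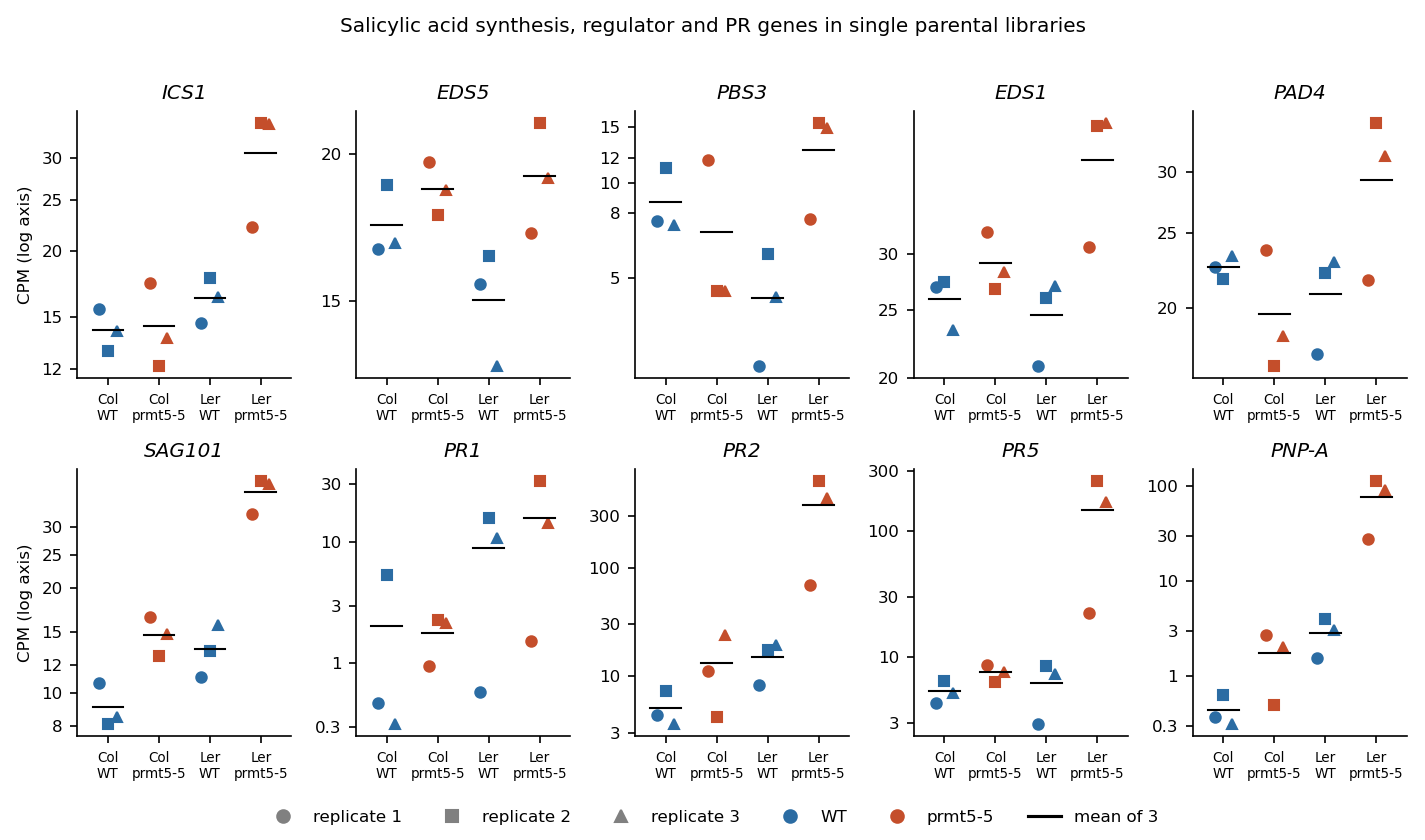
CPM (log axis) of the 10 genes in each of the 12 parental libraries, with marker shape for the replicate, blue for WT, red for prmt5-5 and a line at the mean of 3. PR2, PR5 and PNP-A stand highest in the 3 Ler prmt5-5 libraries, and Ler prmt5-5 replicate 1 is the lowest of its group for all 10 genes.

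PR2, PR5 and PNP-A had the largest changes. PR2 (chromosome 3, 21188397 to 21189967, TAIR10.1) stood at 4.39, 7.22 and 3.59 CPM in Col WT and at 11.2, 4.14 and 24 CPM in the Col mutant. The Ler WT libraries had 8.26, 17.5 and 19.4 CPM, and the Ler mutant libraries 69.6, 634 and 446 CPM. The Col groups overlapped, whereas every Ler mutant library lay above every other parental library. The log2 fold change of PR2 was 4.68 (SE 0.89, adjusted p = 0.00365, edgeR) in Ler, about 25.7-fold, and 1.46 (SE 0.92, adjusted p = 0.275) in Col. The Ler mutant libraries themselves spanned 69.6 to 634 CPM, so the size of the rise differed widely among libraries.

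PR5 (chromosome 1, 28177670 to 28179022) had the same order of libraries in the Ler mutant. Its level was 4.33, 6.53 and 5.24 CPM in Col WT and 8.74, 6.41 and 7.72 CPM in the Col mutant. The Ler WT libraries had 2.96, 8.47 and 7.39 CPM, against 22.3, 248 and 172 CPM in the Ler mutant. The lowest Ler mutant library was above all 9 other parental libraries. PR5 rose by 4.57 (SE 0.82, adjusted p = 0.00264, edgeR) on the log2 scale in Ler, and its value in Col was 0.54 (SE 0.84, adjusted p = 0.680).

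PNP-A (chromosome 2, 8089411 to 8091736) had the fewest counts of the 10 genes in Col WT, with 0.377, 0.637 and 0.316 CPM from 22 to 24 counts a library. It stood at 2.75, 0.499 and 2.05 CPM in the Col mutant. Ler WT had 1.55, 3.96 and 3.07 CPM, and the Ler mutant 27.8, 112 and 90.6 CPM. In Col, 2 mutant libraries were above WT and 1 was within its range, while the Ler groups were far apart. Its log2 fold change was 4.75 (SE 0.62, adjusted p = 0.000462, edgeR) in Ler and 2.16 (SE 1.08, adjusted p = 0.176) in Col, and DESeq2 called the Col value.

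PR1 (chromosome 2, 6241640 to 6242541) differed among libraries of a group more than between groups. Its values were 0.471, 5.31 and 0.316 CPM in Col WT and 0.95, 2.29 and 2.14 CPM in the Col mutant. Ler WT had 0.577, 15.7 and 10.7 CPM, and the Ler mutant 1.54, 31.8 and 14.3 CPM. Replicate 1 was low in both Ler groups, and WT and mutant overlapped in both accessions. The log2 fold change of PR1 was 0.82 (SE 1.12, interval of 2 SE from −1.42 to 3.05) in Ler and 0.15 (SE 1.76, interval from −3.36 to 3.66) in Col. With intervals this wide the data do not show that PR1 was the same in mutant and WT. The allele counts of the genes around PR1 bear on this comparison and are given with the F1 results.

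Among the regulators, SAG101 (chromosome 5, 4828499 to 4830982) was called in both accessions. It stood at 10.7, 8.12 and 8.52 CPM in Col WT and at 16.5, 12.7 and 14.7 CPM in the Col mutant. Ler WT had 11.1, 13.2 and 15.7 CPM, and the Ler mutant 32.7, 40.7 and 40.0 CPM. Mutant and WT libraries did not overlap in either accession. SAG101 rose by 0.68 (SE 0.15, adjusted p = 0.00355, edgeR) in Col, a 1.61-fold change, and by 1.51 (SE 0.14, adjusted p = 4.84e-06) in Ler, a 2.84-fold change.

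EDS1 (chromosome 3, 17755329 to 17758147) and PAD4 (chromosome 3, 19431095 to 19434450), the other regulators, had smaller changes. EDS1 ranged from 20.8 to 27.1 CPM in Ler WT and stood at 30.7, 45.7 and 46.0 CPM in Ler prmt5-5, with no overlap. Its log2 fold change was 0.73 (SE 0.15, adjusted p = 0.00223, edgeR) in Ler and 0.17 (SE 0.15, adjusted p = 0.427) in Col. PAD4 ranged from 17.5 to 22.9 CPM in Ler WT and stood at 21.7, 34.6 and 31.4 CPM in Ler prmt5-5, where replicate 1 fell within the WT range. PAD4 had a log2 fold change of 0.49 (SE 0.17, adjusted p = 0.0391, edgeR) in Ler and of −0.20 (SE 0.17, adjusted p = 0.422) in Col. The Ler call of PAD4 was lost in 7 of the 12 fits that left out 1 library, with adjusted p up to 0.148, with no low-count filter (adjusted p = 0.0534) and with the replicate number as a block (adjusted p = 0.0613). EDS1 has a copy, AT3G48080, with 85.4% identity over 1056 bases, and no source used here says how reads were split between them. The same search found matches elsewhere in the genome for all other genes of the set except SAG101. The best were 94.1% over 153 bases for PNP-A, which had 44 matches, 92.9% over 126 for ICS1 and 91.0% over 324 for PAD4. Those best matches of PNP-A and PAD4 lay in no annotated gene.

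The synthesis genes rose by less than PR2, PR5 and PNP-A. ICS1 (chromosome 1, 28070295 to 28074177) stood at 14.7, 17.8 and 16.4 CPM in Ler WT and at 22.3, 34.9 and 34.9 CPM in Ler prmt5-5, while its Col libraries ranged from 12.1 to 17.4 CPM over both genotypes. The Ler groups did not overlap, and the Col groups did. ICS1 rose 1.88-fold in Ler, a log2 fold change of 0.91 (SE 0.17, adjusted p = 0.00146, edgeR), and its Col value was 0.02 (SE 0.18, interval of 2 SE from −0.33 to 0.37). PBS3 (chromosome 5, 4267456 to 4271064) stood at 2.63, 5.97 and 4.34 CPM in Ler WT and at 7.68, 15.4 and 14.9 CPM in Ler prmt5-5, and its Col mutant libraries stood at 11.8, 4.54 and 4.55 CPM. Its 3 Ler mutant libraries were above Ler WT, and its Col mutant libraries lay on both sides of Col WT. PBS3 rose by 1.55 (SE 0.46, adjusted p = 0.0251, edgeR) in Ler, a call lost without Ler WT replicate 1 or 3 or Ler prmt5-5 replicate 2 or 3, and with the replicate number as a block (adjusted p = 0.0529). EDS5 (chromosome 4, 18185437 to 18189224, overlapping AT4G39040) ranged from 13.2 to 16.4 CPM in Ler WT and from 17.1 to 21.2 CPM in Ler prmt5-5, a rise of 0.34 (SE 0.10, adjusted p = 0.0154, edgeR). The EDS5 call was lost without Ler WT replicate 3 or Ler prmt5-5 replicate 2. Its Ler groups did not overlap.

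Set per kilobase of exon, the order of the genes changed with the group. In Col WT, EDS1 with 10.2 (SD 0.849, n = 3) and PAD4 with 10 (SD 0.346) CPM per kb were highest and did not differ beyond their spread, and PNP-A with 0.210 (SD 0.0811) was lowest. In Ler prmt5-5, PR2 with 260 (SD 195), PR5 with 135 (SD 105) and PNP-A with 36.4 (SD 20.7) CPM per kb led. The difference between PR2 and PR5 was less than the SD of PR2 but more than that of PR5. PR1 with 17.6 (SD 16.8), SAG101 with 17.2 (SD 2.02), EDS1 with 16.0 (SD 3.42) and ICS1 with 14.1 (SD 3.35) CPM per kb followed, and neighbours in this order differed by less than either SD. The 3 least abundant genes of Col WT on this scale were PBS3, PR1 and PNP-A. Each SD is a spread between libraries, which the genes partly shared, and the order within single libraries was not compared.

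Whether the effect of prmt5-5 differed between the accessions was tested as an interaction, the log2 effect in Ler minus that in Col. The difference was positive for 10 of the 10 genes, with a median of 0.86 against −0.01 over all genes. SAG101 alone passed the threshold, at 0.82 (SE 0.20, adjusted p = 0.0410, edgeR), where 1.54% of genes were called higher and 1.69% lower. The point estimates of the output genes were larger and less certain, at 4.03 (SE 1.15, adjusted p = 0.105) for PR5, 3.22 (SE 1.24, adjusted p = 0.214) for PR2 and 2.59 (SE 1.48, adjusted p = 0.411) for PNP-A. ICS1 gave 0.89 (SE 0.25, adjusted p = 0.0726). An unadjusted p under 0.05 was found for 7 of the 10 genes in this edgeR test, and for 4088 of the 22924 genes tested. The count of called genes changed with single libraries and tools. Leaving out Ler prmt5-5 replicate 1 called 5 genes (ICS1, EDS1, PAD4, SAG101 and PR5), DESeq2 called 3 (ICS1, SAG101 and PR5), and the replicate block called 0. Over all genes, edgeR called 741, DESeq2 1633, and fits without 1 library 326 to 1751. The SAG101 call was lost in 8 of the 12 fits without 1 library, with adjusted p from 0.0128 to 0.102.

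The accessions were also compared directly within each genotype. In WT, SAG101 was higher in Ler than in Col, by 0.54 (SE 0.15, adjusted p = 0.0129, edgeR) on the log2 scale, and the other 9 genes did not pass the test, where 14.8% of genes were called higher in Ler and 15.2% lower. The SAG101 call was lost without replicate 3 of Col WT or of Ler WT, and DESeq2 also called PNP-A, at 2.71 (SE 0.71, adjusted p = 0.000757), against 2.78 (adjusted p = 0.0715) by edgeR. In prmt5-5, 7 genes were higher in Ler and none lower, where 14.3% and 14.4% of genes were called. They were ICS1 at 1.08, EDS1 at 0.48, PAD4 at 0.57, SAG101 at 1.36, PR2 at 4.83, PR5 at 4.26 and PNP-A at 5.37 log2 units. PBS3 gave 0.85 (SE 0.43), EDS5 0.03 (SE 0.10) and PR1 3.13 (SE 1.36), none of which passed. The replicate block called PR1 here, at 2.83 (SE 0.71, adjusted p = 0.0246). The EDS1 and PAD4 calls were each lost in 4 of 12 fits without 1 library.

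The 10 genes tended to be high or low together within a group. Ler prmt5-5 replicate 1 was the lowest of its group for 10 of the 10 genes, where 39.4% of all genes were lowest there. Ler WT replicate 1 was the lowest for 9 of 10 (34.8% of all genes), and Col prmt5-5 replicate 2 for 9 of 10 (31.7%). Over all genes, the deviations of Ler WT and Ler prmt5-5 replicate 1 from their group means correlated at r = 0.51. Those of Col prmt5-5 replicate 2 correlated with them at 0.10 and 0.07. The ratio of the highest to the lowest library of a group had a median over the 10 genes of 1.80 in Ler prmt5-5, against 1.2 over all genes. Leaving out Ler prmt5-5 replicate 1 gave 9 called genes in Ler, and leaving out Ler prmt5-5 replicate 2 gave 6.

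Organ and growth markers were read beside these results, since they too can differ between seedling samples. The summed level of 3 green tissue genes was 28870 to 32510 CPM in Ler WT and 24130 to 29040 CPM in Ler prmt5-5, and in Col it was 28290 to 34030 and 24320 to 26620 CPM. Of the 3, 2 fell in each accession. The summed level of 3 root genes was 3755 to 4128 CPM in Ler WT and 2837 to 2932 CPM in Ler prmt5-5, and 2 of the 3 fell. Nearly all of it was PYK10, with 3745 to 4107 and 2830 to 2920 CPM. In Col the sum was 2170 to 2537 CPM in WT and 1909 to 2425 CPM in prmt5-5, and 0 of the 3 were called. For 1 of the 3 the effect was called lower in Ler than in Col, where 1.69% of genes were. Of the 2 flower genes AP1 fell in Ler (log2 fold change −3.85, SE 0.52, adjusted p = 4.11e-05, edgeR) from levels summed over both genes of 0.775 to 2.03 CPM, and the seed genes gave at most 7.29 CPM in a parental library. Of 6 senescence genes 5 were tested, 4 of which fell in Ler and 3 in Col (17% and 12.4% of all genes), and SAG12, the defining marker of senescent leaves, had no count in 10 of the 12 parental libraries and at most 0.0531 CPM in the others. The part of these shifts in the values of the 10 genes was not tested.

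The other genes of the pathway were taken from fixed lists. Of 16 further genes of salicylic acid and N-hydroxypipecolic acid synthesis and modification, 6 rose and 2 fell in Ler, and 0 rose and 1 fell in Col. Beside this and the counts of the lists that follow stand the shares over all genes tested, 19.1% higher and 17% lower in Ler and 14.8% higher and 12.4% lower in Col. The 2 falls in Ler and the 1 in Col were not above those shares. FMO1, which makes N-hydroxypipecolic acid, rose by 3.00 (SE 0.60, adjusted p = 0.00366, edgeR) in Ler, and its Col value was −0.86 (SE 0.70, adjusted p = 0.399). UGT74F2, a salicylic acid glucosyltransferase, rose by 0.56 (SE 0.13) and PAL4, of the phenylalanine route, fell by 0.51 (SE 0.12). The second isochorismate synthase gene, ICS2, went the opposite way to ICS1 in Ler: its log2 fold change was −1.1 (SE 0.29, adjusted p = 0.0136) there and 0.73 (SE 0.31, adjusted p = 0.113) in Col, and the difference between the accessions was −1.83 (SE 0.42, adjusted p = 0.0491, edgeR). ICS2 was named after its values were seen.

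Among 25 receptors and transcription factors of the pathway, 12 rose and 0 fell in Ler, where 19.1% of all genes were called higher, and 1 rose and 3 fell in Col, where the falls were at the share of all genes (12.4%). TGA7, a TGA factor, rose in both, by 0.51 (SE 0.09) in Ler and 0.43 (SE 0.09) in Col. WRKY53 rose by 0.68 (SE 0.14, adjusted p = 0.00163, edgeR) and the NPR1 interactor NIMIN2 by 1.45 (SE 0.30, adjusted p = 0.00264) in Ler. The receptor NPR4 rose by 0.29 (SE 0.07) in Ler and fell by 0.25 (SE 0.07) in Col, with a difference of 0.54 (SE 0.10, adjusted p = 0.0137, edgeR), and was named after its values were seen. Of 7 genes that comprise the EDS1 copy, NDR1 and helper receptors, 4 rose in Ler, against 19.1% of all genes. ADR1, a helper of the EDS1 and PAD4 pair, rose by 0.61 (SE 0.13) in Ler and 0.53 (SE 0.13) in Col, and ADR1-L2 rose by 0.60 (SE 0.17) in Ler. In Col, ADR1 was the member of this list that rose, and NDR1, a membrane protein of immune signalling, fell by 0.97 (SE 0.24). Of 7 genes, 1 in each direction is near the Col shares of all genes, 14.8% and 12.4%.

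Of 10 tested genes among 11 other salicylic acid responsive genes, 5 rose in Ler, against 19.1% of all genes, and 0 in Col, where 1 fell, near the 12.4% of all genes. Their median log2 fold change was 1.67 in Ler and −0.65 in Col, against 0.01 over all genes in each. The summed level of the 11 genes was 770 to 945 CPM in Col WT and 365 to 479 CPM in Col prmt5-5, with no overlap. In Ler it was 126 to 419 CPM in WT and 380 to 1063 CPM in prmt5-5, with overlap. Most of the Col WT sum was ACD6, PCC1 and LURP1, with means of 326.4, 211.5 and 129.5 CPM. In Col prmt5-5 their means were 195.4, 42.87 and 49.84 CPM. The means of AED1, SAG13, GRXC9 and BG1 were higher in Col prmt5-5 than in Col WT. The apoplastic protease gene AED1 rose by 3.85 (SE 0.72, adjusted p = 0.00330, edgeR), the glutaredoxin gene GRX480, also called GRXC9, by 1.82 (SE 0.51) and SAG13 by 2.22 (SE 0.68) in Ler. SAG13 gave 1.98 (SE 0.82, adjusted p = 0.107) in Col. The 11 jasmonate and ethylene defence genes, which are often repressed when salicylic acid acts, had 0 rises and 5 falls in Ler, where 17% of all genes fell. They had 2 falls in Col, not far from the 12.4% of all genes. The storage protein gene VSP2 fell by 0.92 (SE 0.15) in Ler and by 0.70 (SE 0.14) in Col, and VSP1 fell by 1.1 (SE 0.19) and 0.58 (SE 0.18). The defensin gene PDF1.2B fell by 2.15 (SE 0.51, adjusted p = 0.00830, edgeR) in Ler.

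**Figure D2:**
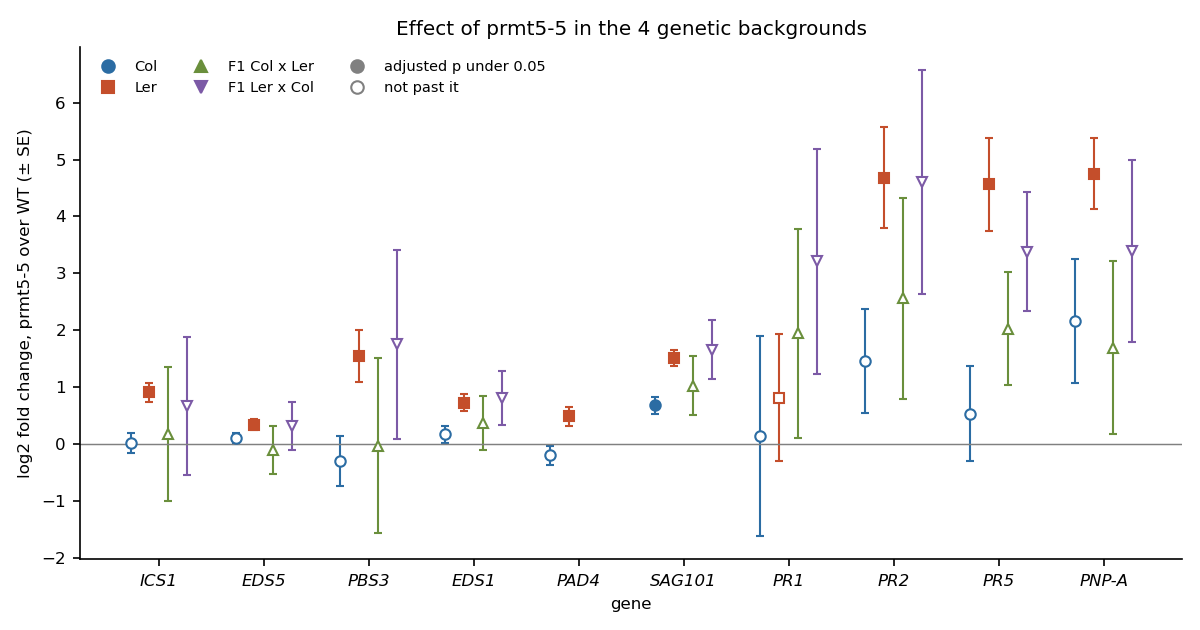
Log2 fold change of prmt5-5 over WT with its standard error for the 10 genes in Col, Ler and the F1 hybrids, filled where the adjusted p was under 0.05. In Ler 9 genes are filled and lie above 0, in Col SAG101 is filled, and no F1 value of a single cross is filled; PAD4 has no F1 value.

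The F1 hybrids were examined to see whether the response of Ler appeared when both genomes shared a nucleus. PAD4 had 3 allele counts in all 12 F1 libraries together, although its parental libraries had 675 counts or more, so 9 genes were tested. In single crosses no gene passed the test, where 3.88% of 17301 genes were called higher in prmt5-5 Col x Ler and 7.92% in Ler x Col, and 1.92% and 6.95% lower. In Ler x Col 3 of the 9 genes (SAG101, PR2 and PR5) had an unadjusted p under 0.05 in this edgeR test, as had 4957 of the 17301 genes, a similar share. In Col x Ler none of the 9 had, and 3385 of all genes. DESeq2 called 3 in Ler x Col and 0 in Col x Ler. Averaged over both crosses, SAG101 rose by 1.34 (SE 0.37, adjusted p = 0.0272, edgeR) and PR5 by 2.71 (SE 0.72, adjusted p = 0.0289), where 12% of genes were called higher and 10.4% lower. The mean effect was positive for 9 of 9 genes, with a median of 1.34 against −0.01 over all genes.

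PR5, one of the pair called over both crosses, stood at 8.16, 13.9 and 38.2 CPM in Col x Ler WT and at 33.7, 25.5 and 197 CPM in Col x Ler prmt5-5. Ler x Col had 7.34, 9.32 and 12.4 CPM in its WT libraries, against 27.0, 184 and 98.5 CPM in the mutant. The groups did not overlap in Ler x Col, and in Col x Ler only WT replicate 3 reached into the mutant range. SAG101 stood at 8.16, 12 and 29.0 CPM in Col x Ler WT and at 26.0, 31.9 and 47.0 CPM in its mutant. The Ler x Col libraries of SAG101 gave 11.9, 9.11 and 18.7 CPM for WT against 20.2, 62.5 and 41.8 CPM for the mutant. The pattern of overlap was that of PR5. Complete separation was seen for these 2 genes in Ler x Col, where 15.6% of all genes showed it upwards, and for none of the 9 in Col x Ler, where 14.1% did.

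PR2, PNP-A and PR1 varied over a wide range among the F1 libraries of a group. PR2 stood at 1.06, 3.63 and 33.1 CPM in Col x Ler WT and at 17.5, 16.2 and 211 CPM in its mutant. Its Ler x Col libraries gave 1.69, 1.52 and 9.75 CPM for WT against 2.78, 297 and 28.1 CPM for the mutant. WT and mutant libraries overlapped in both crosses, and its mean effect was 3.58 (SE 1.32, adjusted p = 0.0911, edgeR). DESeq2 called it, at 3.66 (SE 1.12, adjusted p = 0.00732), and fits without 1 library gave 2.09 to 4.79, none called. PNP-A stood at 1.06, 4.06 and 47.0 CPM in Col x Ler WT and at 23.0, 26.9 and 133 CPM in its mutant. The Ler x Col libraries of PNP-A gave 0.565, 2.49 and 24.9 CPM for WT against 8.52, 216 and 91.4 CPM for the mutant. Its groups overlapped too, with a mean effect of 2.55 (SE 1.1, adjusted p = 0.142, edgeR), which the replicate block called at 3.26 (SE 0.87, adjusted p = 0.0410). PR1 had no count in replicate 1 of either WT F1, where the limit of 3 counts allows up to 0.533 and 0.424 CPM, and up to 146 CPM in Col x Ler prmt5-5 replicate 3. The mean effect of PR1 was 2.58 (SE 1.35, adjusted p = 0.218, edgeR), and 0.91 to 3.63 in fits without 1 library.

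The synthesis genes and EDS1 gave smaller F1 values. ICS1 stood at 4.26, 3.21 and 22.2 CPM in Col x Ler WT, at 3.61, 6.13 and 25.5 CPM in its mutant, at 3.11, 1.66 and 12.8 CPM in Ler x Col WT and at 1.04, 19.2 and 6.24 CPM in its mutant. The groups overlapped in both crosses. The mean effects over both crosses were 0.43 (SE 0.84) for ICS1, 0.10 (SE 0.30) for EDS5, 0.86 (SE 1.14) for PBS3 and 0.59 (SE 0.34) for EDS1, and none passed. ICS1 had 12 to 419 counts a library here, and the interval of 2 SE of its mean effect ran from −1.26 to 2.12.

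**Figure D3:**
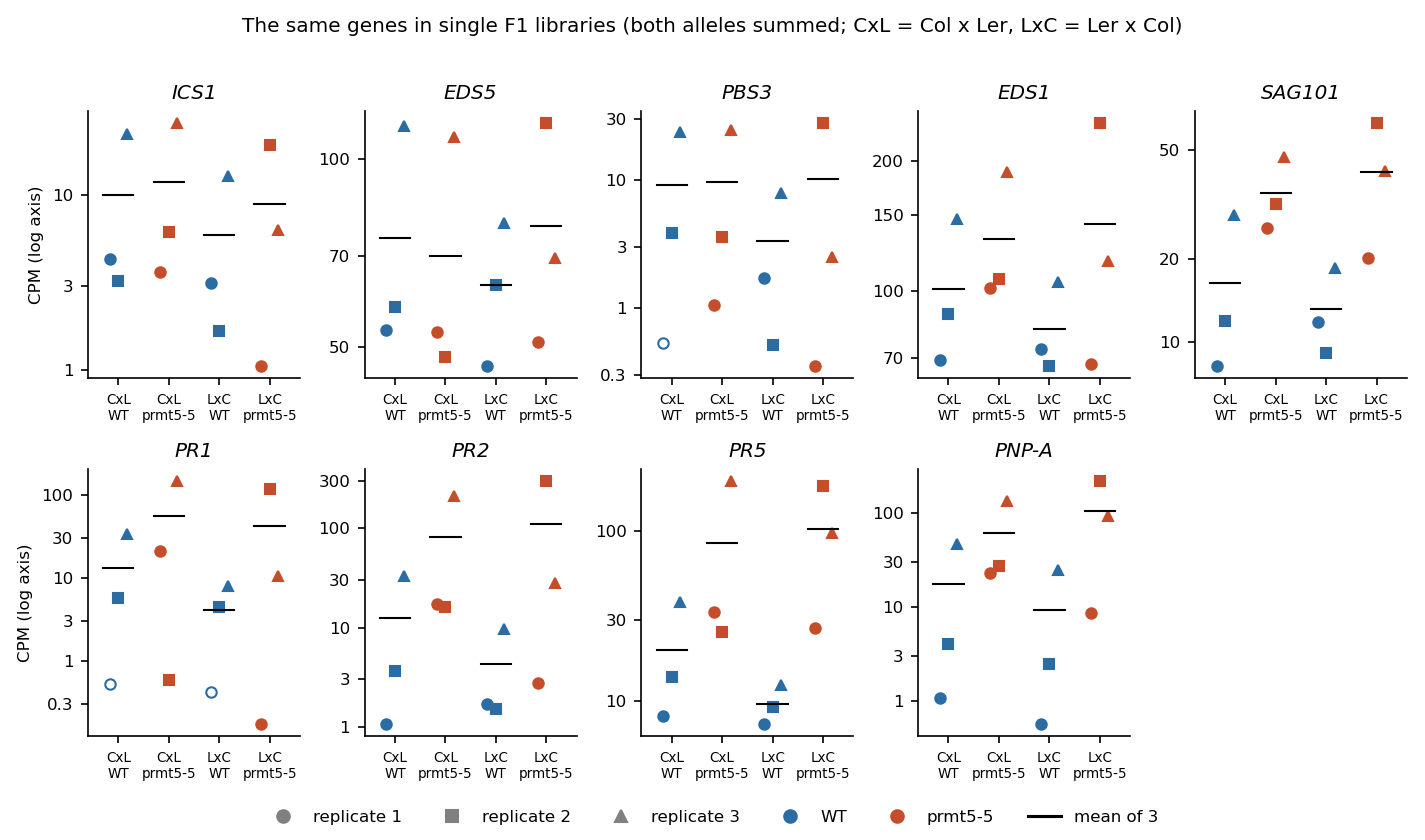
CPM (log axis, both alleles summed) of 9 genes in each of the 12 F1 libraries, with marker shape for the replicate, blue for WT, red for prmt5-5, a line at the mean of 3, and an open marker at the level of 3 counts where no count was found. Replicate 3 is highest for all 9 genes in Col x Ler WT, Col x Ler prmt5-5 and Ler x Col WT, and replicate 2 in Ler x Col prmt5-5.

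In each F1 group 1 library held the highest level of 9 of the 9 genes. These were replicate 3 of Col x Ler WT, Col x Ler prmt5-5 and Ler x Col WT, and replicate 2 of Ler x Col prmt5-5, where 30.2%, 34%, 32.2% and 36.5% of all genes were highest. These libraries also deviated alike over all genes with a mean of 1 CPM or more. Their deviations from the group mean correlated pairwise at r = 0.49 to 0.62, so the shared order was not particular to the 9 genes. The highest library exceeded the lowest by a median factor of 18.4 over the 9 genes in Ler x Col prmt5-5, against 1.33 over all genes, and of 4.68, 7.07 and 4.23 in Col x Ler WT, Col x Ler prmt5-5 and Ler x Col WT. This held in the WT groups as in the mutant groups. The summed green tissue level of Ler x Col prmt5-5 was 20110, 10820 and 13040 CPM in replicates 1 to 3, lowest in the library where the 9 genes were highest, and that of Col x Ler prmt5-5 was 18830, 18230 and 13970 CPM, again lowest in that library. In Col x Ler WT it was 33320, 27500 and 25520 CPM, also lowest in replicate 3, where the 9 genes were highest. In Ler x Col WT it was 23130, 32690 and 32360 CPM, which did not have that order, so 3 of the 4 groups had it. Of the green tissue genes, RBCS1A had only 7.33 to 16.1 CPM of allele counts in the F1 libraries, so these sums rest on LHCB1.3 and LHCB2.1. The part of these marker levels in the values of the 9 genes was not tested. The calls of SAG101 and PR5 over both crosses were each lost in 7 of the 12 fits without 1 library, with adjusted p up to 0.0680 and 0.0743, that of SAG101 also with no low-count filter (adjusted p = 0.0599), and none of the 9 genes was called without Ler x Col prmt5-5 replicate 2.

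The crosses were also set against each other and against the parents. The prmt5-5 effect did not pass a test of difference between Ler x Col and Col x Ler for any of the 9 genes, where 0% of 17301 genes were called by edgeR and 12 genes by DESeq2. The 9 differences were positive, with a median of 1.26, and none had an unadjusted p under 0.05. The mean F1 effect minus the mean of the parental effects, and minus the Ler effect, gave 0 called genes of 9 by edgeR and DESeq2, and 0 with an unadjusted p under 0.05, where 1.43% and 1.99% of 17264 genes were called higher and 0.469% and 1.2% lower. For PR5 these differences were 0.15 (SE 0.89) and −1.87 (SE 1.08), and for SAG101 0.25 (SE 0.38) and −0.17 (SE 0.45). The intervals of 2 SE for PR5, from −1.64 to 1.94 and from −4.02 to 0.29, include an F1 effect equal to either.

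Within the F1 hybrids, both alleles share the same nucleus, and the share of Ler counts compares them directly. In WT F1, the Ler allele gave more counts than the Col allele for 5 of the 9 genes, PR2, PNP-A, PR5, PR1 and SAG101, and fewer for EDS5, where 14.4% of genes were called higher and 16.1% lower (edgeR, adjusted p under 0.05). PR2 had a Ler share of 73.7% of 684 counts, with Ler above Col in 6 of 6 WT libraries. That is a log2 ratio of 1.55 (SE 0.17, adjusted p = 4.85e-09, edgeR). PNP-A had 68.5% of 1167 counts, at 1.15 (SE 0.14), PR5 65.2% of 1190, at 0.89 (SE 0.13), and SAG101 59.2% of 1206, at 0.50 (SE 0.12), each with Ler above Col in 6 of 6 libraries. PR1 had 64.0% of 744 counts, at 0.85 (SE 0.18, adjusted p = 0.000307), with Ler above Col in the 4 libraries that had counts, and DESeq2 did not call it. EDS5 had a Ler share of 44.5% of 5803 counts, at −0.32 (SE 0.06, adjusted p = 7.76e-05), with Ler below Col in 6 of 6.

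In prmt5-5 F1 the order of the alleles was kept for 5 genes, where 15% of genes were called higher in the Ler allele and 19.3% lower. PNP-A had a Ler share of 77.1% of 7455 counts (log2 ratio 1.78, SE 0.09), PR5 65.5% of 8309 (0.88, SE 0.08), PR2 60.4% of 9592 (0.69, SE 0.08) and SAG101 55.1% of 3098 (0.34, SE 0.09), again in 6 of 6 libraries each. EDS5 had 44.2% of 6114 counts (−0.34, SE 0.06), and PR1 50.2% of 4918 (0.06, SE 0.11). ICS1, PBS3 and EDS1 were called in neither genotype, and their shares lay between 44.5% and 50.6%. No source used here states how a read was assigned to an allele.

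**Figure D4:**
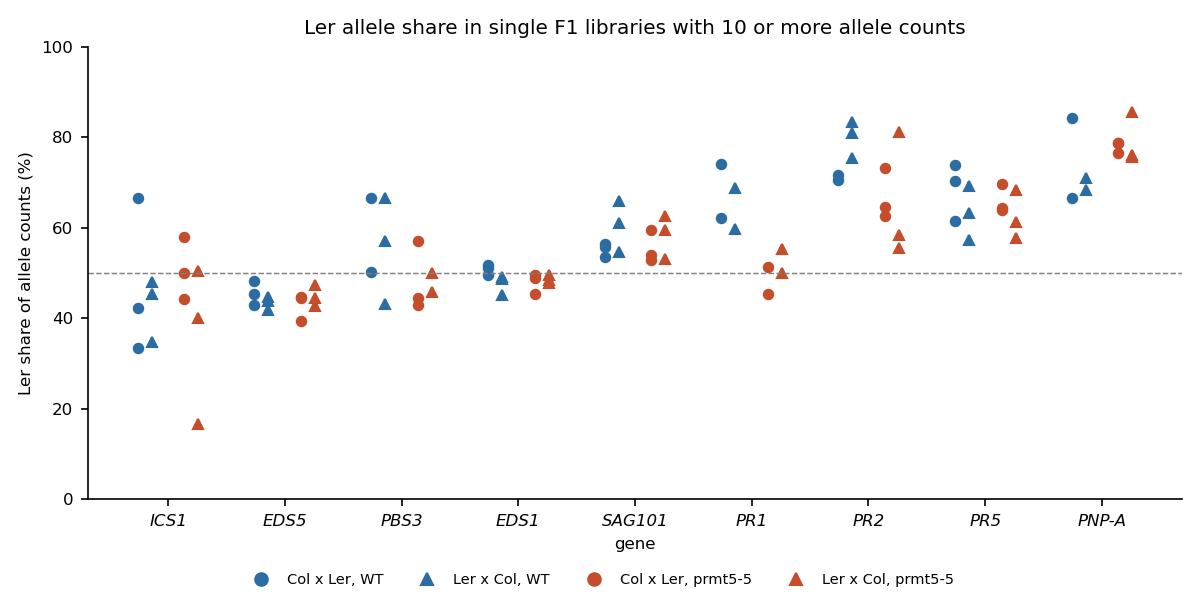
Ler share of allele counts (percent) for 9 genes in each F1 library with 10 or more allele counts, circles for Col x Ler, triangles for Ler x Col, blue for WT and red for prmt5-5, with a dashed line at 50%. PR2, PR5, PNP-A and SAG101 lie above the line and EDS5 below it in both genotypes, and PR1 lies above it in WT and around it in prmt5-5.

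Whether prmt5-5 changed the balance of the alleles was tested as a difference of the log2 ratios. It was called for 3 of the 9 genes, lower for PR2 and PR1 and higher for PNP-A, where 2.7% of genes were called lower and 1.06% higher. The ratio of PR2 fell by 0.86 (SE 0.20, adjusted p = 0.00443, edgeR), from shares of 71.6% and 75.5% in the WT libraries with the most PR2 counts (Col x Ler and Ler x Col replicate 3) to 62.7% and 58.5% in Col x Ler prmt5-5 replicate 3 and Ler x Col prmt5-5 replicate 2. Over all libraries the PR2 shares overlapped, at 70.6% to 100% in WT F1 and 55.6% to 81.2% in prmt5-5 F1, where Col x Ler replicate 2 had 73.2% of 164 counts and Ler x Col replicate 1 had 26 Ler counts of 32. PR5, by contrast, had a change of −0.01 (SE 0.14, interval of 2 SE from −0.29 to 0.27). PNP-A changed by 0.63 (SE 0.17, adjusted p = 0.0220), but by −0.12 (adjusted p = 0.966) without Col x Ler WT replicate 3. DESeq2 called none of the 3, at −0.83 (adjusted p = 0.668) for PR2, −0.73 (adjusted p = 0.975) for PR1 and 0.22 (adjusted p = 0.999) for PNP-A. Without Col x Ler WT replicate 3, without Ler x Col WT replicate 3 or without Col x Ler prmt5-5 replicate 3, edgeR called none either, with PR2 between −1.04 and −0.74 in those fits.

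The neighbours of each gene were read as a check of which genome lay there. For 9 of the 10 genes, the 20 nearest counted genes had a median Ler share of 48.5% to 50.2% in prmt5-5 F1. PR1 was the exception: its 20 neighbours, between 6134010 and 6387570 on chromosome 2 (TAIR10.1), had a median Ler share of 18.6% in prmt5-5 F1 and of 51.6% in WT F1. By library, their median was 17.9%, 35.1% and 12.5% in Col x Ler prmt5-5 and 6.65%, 34.7% and 29.8% in Ler x Col prmt5-5. In the WT F1 libraries the median was 49.8% to 55.7%. Single neighbours of PR1 ran from 9.33% to 100% in prmt5-5 F1. With the counts of these neighbours pooled, the Ler share was 33.4%, 36.2% and 38.8% in Col x Ler prmt5-5. The pooled share was 18.8%, 42.6% and 34.6% in Ler x Col prmt5-5, and 52.6% to 56.1% in the WT F1 libraries. The prmt5-5 allele had been brought into Ler from Col, and whether Col sequence remained at PR1 in part of the Ler mutant plants was not tested. The change of the PR1 allelic ratio, −0.79 (SE 0.21, adjusted p = 0.0215, edgeR), and the PR1 values in Ler prmt5-5 stand beside this difference in the region, and an effect of prmt5-5 on PR1 and an effect of the region cannot be told apart. PNP-A, also on chromosome 2, had neighbours at 48.5%.

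**Figure D5:**
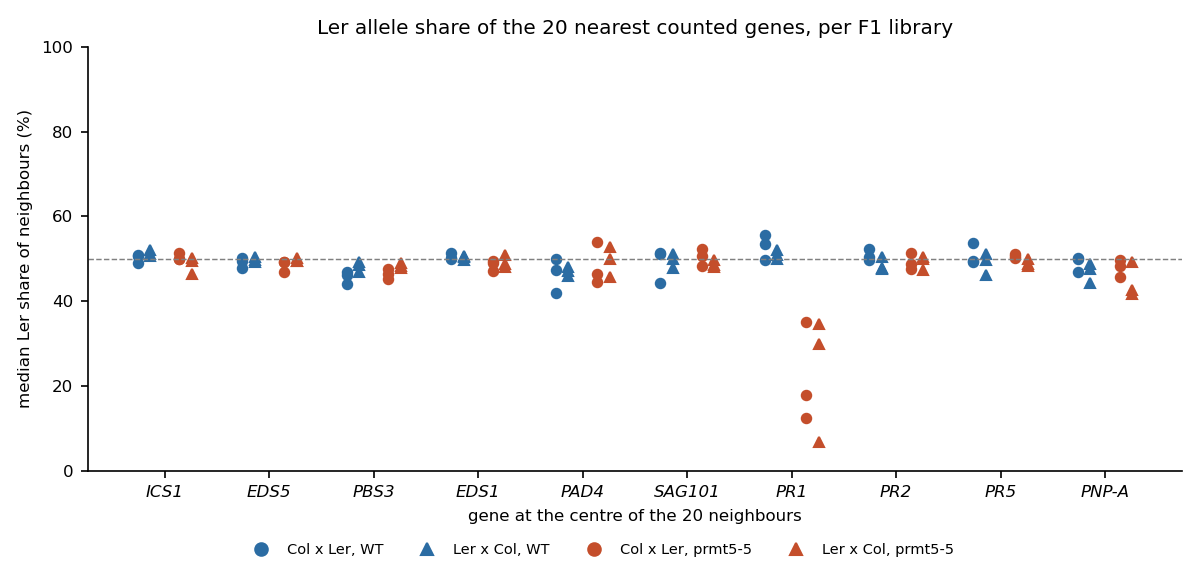
Median Ler share (percent) of the 20 nearest counted genes around each of the 10 genes, per F1 library, circles for Col x Ler, triangles for Ler x Col, blue for WT and red for prmt5-5. The red points of PR1 lie between 6.65% and 35.1%, and those of the other 9 genes lie near the dashed line at 50%.

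The difference between the accessions was then compared with the difference between their alleles in the F1. In WT, the parental log2 difference minus the allelic log2 difference passed the test for 0 of the 9 genes by edgeR and DESeq2, and 0 had an unadjusted p under 0.05, where 5.47% of 17264 genes were called higher and 5.47% lower. For SAG101 the WT difference was 0.04 (SE 0.20), the higher level in Ler seedlings being matched by the higher count of the Ler allele. In prmt5-5, the signed Ler minus Col difference was called higher between parents than between alleles for 7 of the 9 genes. Over all genes, 8.07% were called higher and 4.2% lower. The excess was 4.13 (SE 0.82, adjusted p = 0.00181, edgeR) for PR2, 3.58 (SE 0.58, adjusted p = 0.000177) for PNP-A and 3.40 (SE 0.73, adjusted p = 0.00412) for PR5. It was 1.24 (SE 0.26) for ICS1, 1.02 (SE 0.16) for SAG101, 0.59 (SE 0.14) for EDS1 and 0.39 (SE 0.11) for EDS5. PBS3 at 0.81 (SE 0.57) and PR1 at 3.08 (SE 1.30) did not pass. For EDS5 the parents differed by 0.03 (SE 0.10) and the alleles by −0.34 (SE 0.06), so its parental difference was the smaller in size. For PR2, PR5 and PNP-A, Ler seedlings with prmt5-5 thus exceeded Col seedlings with prmt5-5 by far more than the Ler allele exceeded the Col allele in one nucleus. Leaving out 1 library gave 5 to 8 called genes in place of 7, and EDS5 was lost in 3 of 24 such fits, ICS1 without Col x Ler prmt5-5 replicate 3 and PR2 without Ler x Col prmt5-5 replicate 2.

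The genes with the most similar profile over the 12 parental libraries were named by the smallest mean absolute difference of log2(CPM + 0.5) values centred on each gene, among 20112 genes. The nearest gene to PR5 and to PR2 was AED1, the apoplastic protease gene, at 0.347 and 0.629. PNP-A was nearest to the receptor-like kinase gene CRK8 at 0.670, which was also the third nearest to PR2 at 0.709. PBS3 was nearest to AT4G03450 at 0.226, with the transcription factor gene WRKY38 next at 0.228. ICS1 was nearest to the channel gene CNGC13 at 0.127, SAG101 to NAS3 at 0.182, EDS1 to AT1G76980 at 0.0748, PAD4 to AT2G26190 at 0.0645 and EDS5 to AT5G18400 at 0.0514. PR1 had no close match, its nearest gene, AT4G10500 (DLO1, a salicylic acid hydroxylase gene), lying at 0.896. The profiles share the 12 libraries, and small differences mark genes that hardly moved as much as genes that moved alike.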

How the data were processed

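RNA of entire seedlings was measured in 24 libraries of 8 groups. The authors deposited raw counts per gene as whole numbers: 1 count per parental library, and 1 count per allele for each F1 library. Per the submitters' processing notes, Trim Galore, FastQC, STAR 2.7.9a and TAIR10 were used. Reads of 100 bp came from polyadenylated RNA, per the labels' protocols. No source used here names the counting tool, the annotation, the strand setting or how reads were assigned to alleles, and a preference of the aligner for reads of one accession would shift the Ler shares. Each table held 33602 genes, and 3 with no Ler value were left out.

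From these counts, edgeR 4.0.16 in R 4.3.3 gave quasi-likelihood tests (robust fit, TMM, filterByExpr, two-sided) with p-values adjusted over all genes tested by Benjamini-Hochberg and a threshold of 0.05. Parental libraries were fitted together with 1 mean a group, F1 libraries likewise on summed alleles, and allele counts with the library as a block. Further fits joined parents and F1. The procedure was tested on simulated data. Levels are CPM, errors are SE for log2 values and SD for levels, intervals of log2 values span 2 SE, and shares have exact 95% binomial intervals that cover counting error only. A floor is 3 counts. Neighbours were the 10 nearest genes on each side with at least 20 allele counts per genotype. Sequences, names and positions come from RefSeq TAIR10.1 (the upstream sequence of 1 gene is not reported here), and copies from blastn 2.17.0. DESeq2 1.42.0, RLE normalisation, no filter, a replicate block and fits without each library were the alternatives.

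The genes, lists and tests were chosen with earlier results of these data known. Named were the 10 genes, PRMT5, up to 3 genes of a list with the smallest p past the threshold, and the 3 genes nearest in profile to each of the 10, of which part is printed. No set test was run.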

Additional observations from a re-analysis of the deposited data

Results flagged for a closer look

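The prmt5-5 effect on SAG101 passed the test of a difference between the accessions: the log2 effect in Ler exceeded that in Col by 0.82 (SE 0.20, adjusted p = 0.0410, edgeR). The call was lost in 8 of the 12 fits without 1 library and with the replicate number as a block (adjusted p = 0.0565).

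Of the 9 genes, 3 had a change of the allelic ratio between WT F1 and prmt5-5 F1 that passed the same edgeR threshold. The log2 ratio of Ler to Col counts changed by −0.86 for PR2 (adjusted p = 0.00443, edgeR), by −0.79 for PR1 (adjusted p = 0.0215) and by 0.63 for PNP-A (adjusted p = 0.0220). DESeq2 called none of these changes. The genes around PR1 had a median Ler share of 18.6% in the mutant hybrids.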

How the results depend on the processing

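The counts of genes called among the 10 were 1 in Col, 9 in Ler, 1 for the difference between the accessions, 1 and 7 for Ler against Col in WT and in prmt5-5, 0 for each cross, 2 for the mean over both crosses, 6 and 5 for the alleles in WT and prmt5-5 F1, 3 for the change of the allelic ratio, and 0 and 7 for the parental minus allelic difference. With DESeq2 they were 2 in Col, 3 for the difference between the accessions, 2 for Ler against Col in WT, 3 in Ler x Col, 3 for the mean over both crosses (PR2 added), 5 for the alleles in WT F1 (PR1 lost) and 0 for the change of the allelic ratio. Without the low-count filter the mean over both crosses gave 1 and Ler 8, PAD4 being lost. Leaving out 1 library at a time gave 1 to 2 in Col, 6 to 9 in Ler, 0 to 5 for the difference between the accessions, 0 to 2 and 5 to 8 for Ler against Col in WT and prmt5-5, 0 to 1 in Ler x Col, 0 to 2 for the mean over both crosses, 0 to 3 for the change of the allelic ratio, and 5 to 8 for the parental minus allelic difference in prmt5-5. The PNP-A ratio change turned from 0.63 to −0.12 without Col x Ler WT replicate 3, and its highest value without 1 library was 0.68. The cause was not tested. A sign change between 2 values that both missed the threshold was not counted as a reversal, and there were 118 of these among 2771 values. The neighbours of PR1 had a median Ler share of 14.9% with at least 50 allele counts per gene, and of 13.5% to 22.3% without 1 library.

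In their deviations from the group mean, same-numbered libraries correlated above 0.1 in 2 of 18 parental and 8 of 18 F1 pairs of groups. Their r ran from −0.21 to 0.51 in the parents and from −0.39 to 0.62 in the F1. Libraries of different number gave −0.53 to 0.38 and −0.61 to 0.57. The main fits therefore did not pair samples by number, and whether some groups shared a pairing was not settled. With the replicate number as a block, the difference between the accessions gave 0 genes, Ler x Col gave 2 (SAG101 and PR5), Ler gave 7 (PBS3 and PAD4 lost), Ler against Col in prmt5-5 gave 8 (PR1 added), and the mean over both crosses gave 3 (PNP-A added). The block changed no other call among the 10 genes. The allelic fits already hold the library as a block. Over all genes, the difference between the accessions called 741 by edgeR, 1633 by DESeq2 and 326 to 1751 without 1 library, and the cross difference 0 and 12. F1 minus mid-parent called 328 and 573, F1 minus Ler 551 and 909, with 350 to 668 without 1 library. Col x Ler called 1005 (410 to 1085) and Ler x Col 2573 (1576 to 2838). Depth limits the F1 values of PR1, which had no count in 2 libraries. PAD4 had 3 allele counts in all, although EDS1 had 390 to 4547 counts a library there, and the cause was not tested.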
